A study of Mus musculus with 6 samples.

Results

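Adipocyte genes were read in 6 mouse mammary tumours, a tumour type that grows inside a pad of fat. The set names 31 genes of the fat cell, of which 28 are white fat genes and 3 (Ucp1, Cidea and Ppargc1a) are brown fat genes. Members were all probe sets whose platform annotation gives exactly 1 gene symbol and that symbol is in the set. This gave 45 of 22626 probe sets, for 26 of 12393 genes, of which 38 probe sets belong to 23 white and 7 to 3 brown fat genes. Cfd, Plin1, Adrb3, Acsl1 and Agpat2 had no probe set under this rule and were not analysed here. A gene with several probe sets is described by its brightest one, that with the highest mean over the arrays, unless another is named.

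All tumours came from adult F1 females with 1 parent from a PyMT line, which carries the polyomavirus middle T antigen, an oncogene under which mice grow mammary tumours. Inbred strains supplied the other parent, AKR/J for 3 samples (the AKR cross, or AKR F1 tumours) and DBA/2J for 3 samples (the DBA cross, or DBA F1 tumours), and the study asks how basal expression differs between the genotypes. The sources used here give neither the transgene's promoter nor the ages, non-transgenic or tumour-free tissue was not analysed here, and nothing in the labels says that the samples come from different animals. The p-values therefore rest on the spread among these samples, which may be technical. The tissue was snap-frozen bulk tumour, in which fewer cells of a type and less RNA per cell cannot be told apart. Values are log2 array signals as deposited, so 1 unit is a 2-fold difference, and signals of different genes are not compared.

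Array medians lay between 7.52 and 7.57. AKR replicate 2 had a narrower spread of values than the others (SD 1.76, against 1.90 to 2.02), and in decile 3 of mean level its probe sets lay 0.26 above their own median over the arrays. Of the 26 member genes, 17 had a mean level below that of the median probe set, so small differences of these genes lie in a range where that array stood high. The luminal epithelial markers of the mammary gland Krt8 (12.13 to 12.75), Krt18 (12.28 to 12.74) and Epcam (12.78 to 13.17) differed by less than 1 log2 unit over the 6 arrays. They are the 3 brightest of 10 measured luminal markers, and the list as a whole was less even. Its differences of AKR minus DBA F1 tumours ran from -0.43 to 1.96. The limma test described below called 1 of the 10, higher in AKR F1 tumours, against 0.0565% of all genes in either direction. DBA replicate 1 stood apart in fat and skeletal muscle genes, as given with the values, so results between the crosses are given with and without it. Among the defining fat cell markers Adipoq, Fabp4 and Cidec were highest on that array, and Lep and Lipe were not.

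The white fat cell stores triglyceride in 1 large droplet, takes up fatty acids that lipoprotein lipase frees from blood lipoproteins, and releases them again by lipolysis. The brown fat cell burns fatty acids in mitochondria that carry the uncoupling protein Ucp1. The nuclear receptor Pparg, which pairs with a retinoid X receptor, and the C/EBP factors drive many genes of both cell types, and the mammary epithelium grows into this fat and exchanges signals and lipid with it.

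The sequence upstream of the start site is shown for the member genes that stood at least 1 log2 unit above all other arrays on 1 tumour (DBA replicate 1) and that have an entry in the RefSeq promoter table of the mouse build GRCm38.p6. These were Adipoq (chr16:23146286-23146535, plus strand), Cd36 (chr5:17835897-17836146, minus strand), Pck1 (chr2:173152823-173153072, plus strand) and Ucp1 (chr8:83290098-83290347, plus strand). Each window holds the 250 bases before the annotated start, 5′ to 3′ on the gene's strand, and capitals mark a match to a searched motif on either strand.
Adipoq: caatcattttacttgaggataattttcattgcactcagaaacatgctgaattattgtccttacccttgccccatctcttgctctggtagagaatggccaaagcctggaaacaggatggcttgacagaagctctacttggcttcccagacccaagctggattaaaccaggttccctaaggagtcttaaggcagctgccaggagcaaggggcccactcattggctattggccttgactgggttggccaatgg
Cd36: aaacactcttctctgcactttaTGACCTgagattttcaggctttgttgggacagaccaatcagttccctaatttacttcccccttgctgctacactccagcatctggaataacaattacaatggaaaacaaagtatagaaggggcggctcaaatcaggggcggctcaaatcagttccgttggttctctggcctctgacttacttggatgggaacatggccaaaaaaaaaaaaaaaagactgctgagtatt
Pck1: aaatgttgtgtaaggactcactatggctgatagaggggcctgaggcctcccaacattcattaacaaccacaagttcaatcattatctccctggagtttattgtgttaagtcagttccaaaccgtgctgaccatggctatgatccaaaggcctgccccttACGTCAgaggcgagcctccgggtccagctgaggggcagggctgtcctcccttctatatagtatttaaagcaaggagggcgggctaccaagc
Ucp1: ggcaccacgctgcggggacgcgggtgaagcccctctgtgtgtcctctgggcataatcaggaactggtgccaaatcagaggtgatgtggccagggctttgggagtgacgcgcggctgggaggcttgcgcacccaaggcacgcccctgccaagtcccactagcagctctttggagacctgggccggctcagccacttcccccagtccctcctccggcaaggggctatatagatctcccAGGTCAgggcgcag
The motifs searched were AGGTCA, the core site of nuclear receptors, its direct repeat AGGTCANAGGTCA as bound by Pparg with a retinoid X receptor, the C/EBP pattern TTNNGCAA, ACGTCA of cAMP response elements, and TATAAA. The direct repeat contains the core site, so their matches overlap. The member genes had 25 windows, for 18 of the 26 genes. The core site was found in 7 of 25 member windows, of 5 genes, against 14% of all 32851 windows of this length. The Aqp7 windows overlap and share a core site, so that site is counted more than once. Windows of the same gene are not independent, and no enrichment is read from these counts. TTNNGCAA was in 4 of 25 (9.56% of all windows), ACGTCA in 2 (6.47%), TATAAA in 3 (12.4%) and the full direct repeat in none (0.0335%). The Cd36 and Ucp1 windows hold 1 core site each, the Pck1 window holds ACGTCA at 91 bases before the start, and the Adipoq window holds none of these letters. These are letter matches, not measured binding.

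**Figure D1:**
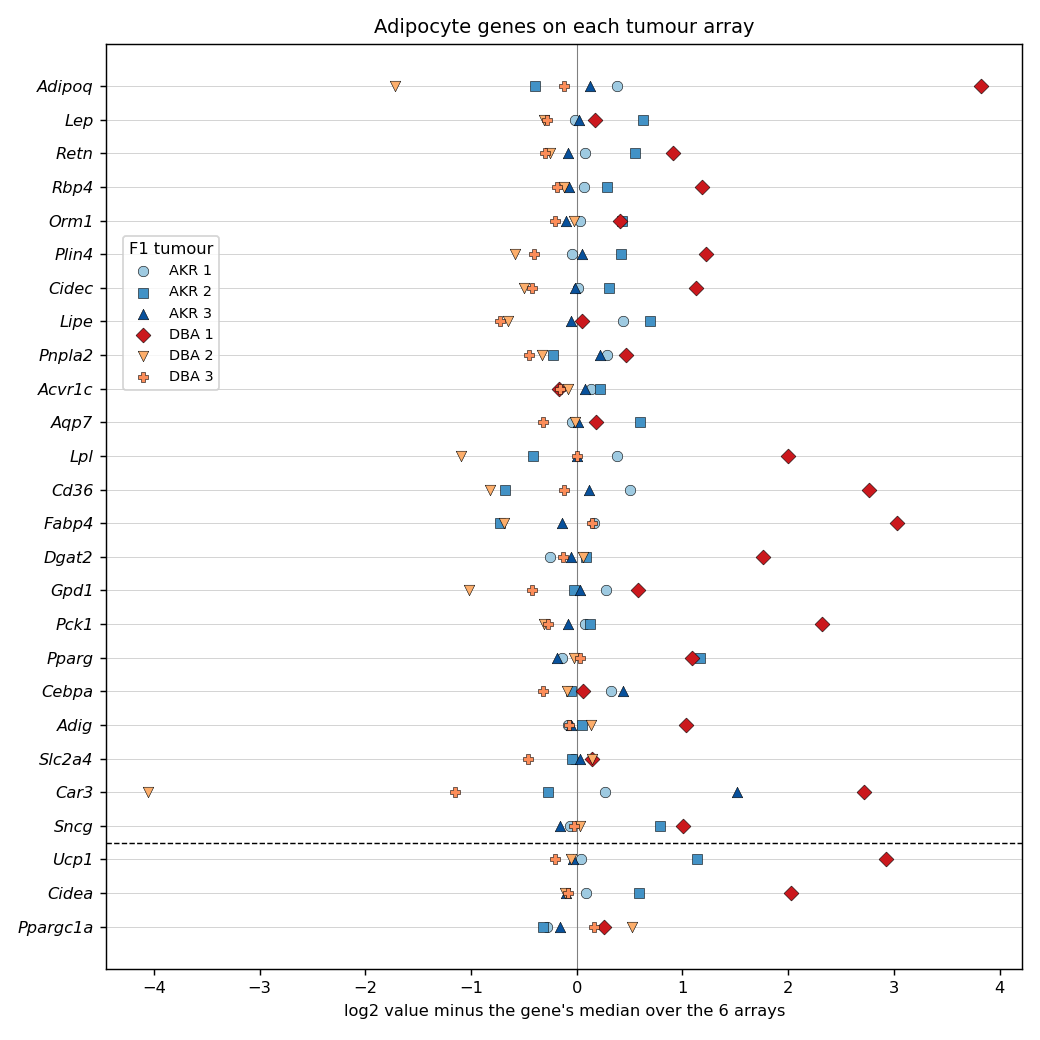
Each row is 1 member gene, and each symbol is 1 tumour array, placed at its log2 value minus that gene's median over the 6 arrays; white fat genes stand above the dashed line and brown fat genes below it. DBA replicate 1 (red diamonds) lies furthest to the right for 17 of 26 genes, and DBA replicate 2 reaches furthest to the left, for Car3 and Adipoq.

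Most of the fat genes were highest on 1 tumour. On DBA replicate 1, 17 of 26 member genes had their highest value, against 17.1% of all 12393 genes. The margin over the next highest array was at least 1 log2 unit for 9 of 26 (7 of 23 white and 2 of 3 brown fat genes), against 0.573% of all genes (71 genes). Adipoq had the largest margin of all 12393 genes on that array, 3.44 log2 units, and Fabp4 the next, 2.87. These 9 genes were Adipoq, Lpl, Cd36, Fabp4, Dgat2, Pck1, Car3, Ucp1 and Cidea. Dgat2 is among them only with its brightest probe set chosen by a mean that includes that array. With the probe set of every gene chosen by its mean over the other 5 arrays, 8 of 26 member genes (6 white, 2 brown) had such a margin, against 0.557% of all genes, and 17 of 26 were highest there, against 16.9%. In 10 of 26 genes DBA replicate 2 was the lowest array, against 14.8% of all genes, and in 9 DBA replicate 3, against 29.7%. AKR replicate 2 was the highest in 6 of 26, against 32.3%.

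**Figure D2:**
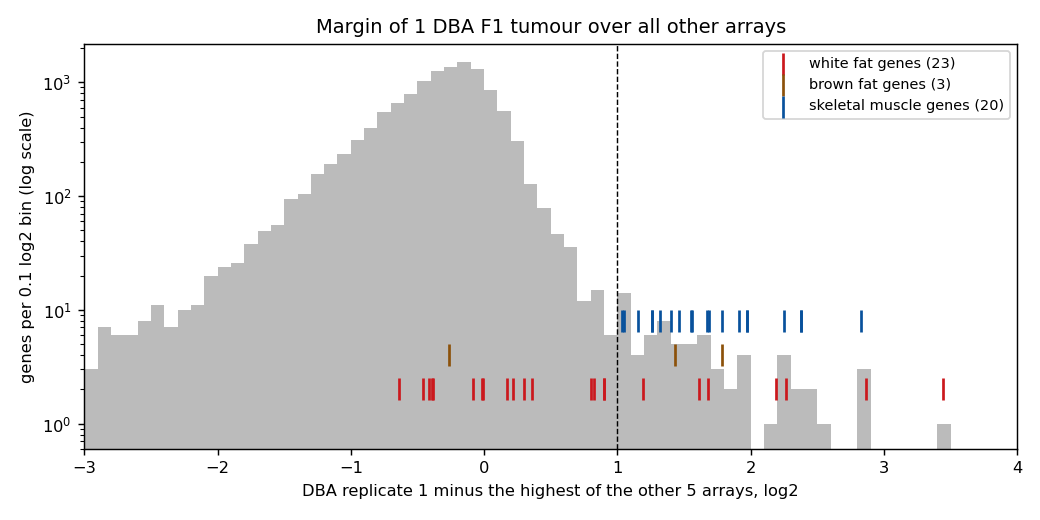
Grey bars count all 12393 genes by the log2 margin of DBA replicate 1 over the highest of the other 5 arrays (log scale for counts; 37 genes lie left of the axis), and vertical ticks mark member and skeletal muscle genes at arbitrary heights. To the right of the dashed line at 1 log2 unit lie 71 genes, among them 7 white fat genes, 2 brown fat genes and all 20 skeletal muscle genes. These lists were chosen with earlier results of these data known.

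Among the secreted products, Adipoq, which encodes the fat cell hormone adiponectin, read 7.13, 6.35 and 6.88 in AKR F1 tumours and 10.57, 5.03 and 6.63 in DBA F1 tumours. DBA replicate 1 stood 15.4-fold above the median of the other 5 arrays and DBA replicate 2 was the lowest, so the AKR values lay inside the DBA range. Retn, the gene of resistin, a hormone of rodent fat cells, read 8.09, 8.56 and 7.93 in the AKR cross and 8.92, 7.76 and 7.71 in the DBA cross. Rbp4, the carrier of retinol in blood, read 6.03, 6.25 and 5.90 against 7.15, 5.84 and 5.78, again highest on DBA replicate 1. Both genes were lower on DBA replicates 2 and 3 than on any AKR array.

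Lep, which encodes the satiety hormone leptin, did not share that pattern. It read 5.33, 5.98 and 5.37 in the AKR cross and 5.52, 5.03 and 5.07 in the DBA cross, so AKR replicate 2 was the highest. Orm1, an acute phase plasma protein gene, read 5.67, 6.07 and 5.53 against 6.05, 5.61 and 5.43, with the highest values on AKR replicate 2 and DBA replicate 1. Both genes are dim here, at the 12.5 and 17.0 percentile of all probe sets by mean level.

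For the droplet coat, Plin4, a perilipin, read 7.03, 7.50 and 7.13 in the AKR cross and 8.30, 6.49 and 6.68 in the DBA cross. Cidec, which fuses small droplets into large ones, read 5.54, 5.83 and 5.51 against 6.66, 5.02 and 5.10. In both genes DBA replicate 1 was the highest array by 0.80 and 0.82 log2 units and the other DBA arrays were the lowest, so the DBA values lay on both sides of all AKR values.

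Genes of lipolysis varied less, and DBA replicate 1 did not lead most of them. Lipe, the hormone-sensitive lipase, read 8.02, 8.27 and 7.53 in the AKR cross and 7.63, 6.94 and 6.86 in the DBA cross, with an overlap of 1 value. Pnpla2, the lipase of the first step of triglyceride breakdown, read 10.04, 9.53 and 9.98 against 10.22, 9.43 and 9.31. Aqp7, a channel through which glycerol leaves the fat cell, read 6.41, 7.04 and 6.47 against 6.63, 6.43 and 6.13. Acvr1c, an activin receptor of fat cells, was the 1 white fat gene whose crosses did not overlap at the brightest probe set, at 6.45, 6.54 and 6.40 in AKR against 6.15, 6.24 and 6.16 in DBA F1 tumours. Its difference was small, 0.28 on the log2 scale. Crosses without overlap were thus seen in 1 of 23 white fat genes, against 38.4% of all genes.

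Over all 6 arrays the fatty acid uptake genes followed Adipoq most closely. Lpl, the lipoprotein lipase, read 9.54, 8.75 and 9.16 in the AKR cross and 11.16, 8.07 and 9.16 in the DBA cross. Cd36, a fatty acid transporter also made by endothelium and macrophages, read 7.06, 5.88 and 6.68 against 9.33, 5.74 and 6.44. Fabp4, the fatty acid binding protein of the fat cell, read 8.83, 7.94 and 8.52 against 11.70, 7.97 and 8.81. On DBA replicate 1 these stood 3.99-fold, 7.39-fold and 9.04-fold above the median of the other 5 arrays. As a description over 6 tumours, Pearson's r with Adipoq was 0.99 for Lpl, 0.98 for Cd36 and 0.96 for Fabp4, and over the 5 tumours without DBA replicate 1 it was 0.98, 0.86 and 0.75. Over those 5 tumours Gpd1 (0.92) and Car3 (0.91) had a higher r than Cd36 and Fabp4.

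Endothelial markers ranged between -0.22 and 0.19 and macrophage markers between -0.67 and 0.35 in their mean deviation from each gene's median on the arrays. DBA replicate 1 lay at 0.19 in the former and 0.26 in the latter, whereas the uptake genes lay at 2.60 there. The part of these cells in the values of Cd36 was not tested.

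Of the genes of triglyceride synthesis, Dgat2, which adds the last fatty acid, at 1 of 2 probe sets of nearly equal brightness, read 7.55, 7.89 and 7.75 in the AKR cross and 9.57, 7.86 and 7.67 in the DBA cross. Pck1, which supplies the glycerol backbone in fat and is known from the liver for glucose synthesis, read 4.45, 4.50 and 4.29 against 6.69, 4.06 and 4.10. For both, 5 arrays lay within 0.34 and 0.43 log2 units of each other and DBA replicate 1 stood apart, 3.53-fold and 5.27-fold above their median. Gpd1, which makes glycerol 3-phosphate, read 9.14, 8.83 and 8.89 against 9.44, 7.84 and 8.44, and here the low values of DBA replicates 2 and 3 set the DBA mean.

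The regulators showed no common pattern. Pparg read 6.19, 7.49 and 6.14 in the AKR cross and 7.41, 6.30 and 6.35 in the DBA cross, so 1 tumour of each cross stood more than 1 log2 unit above the rest. Cebpa, a factor also active in epithelium and myeloid cells, read 10.24, 9.86 and 10.36 against 9.98, 9.83 and 9.60. Adig, a small protein that promotes fat cell formation, read 6.87, 7.00 and 6.90 against 7.99, 7.09 and 6.88. Adig and Pparg stood 2.12-fold and 2.16-fold above the median of the others on DBA replicate 1, and Cebpa 1.09-fold.

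Slc2a4, the insulin-dependent glucose transporter of fat and muscle, read 7.81, 7.80 and 7.88 in the AKR cross and 7.99, 7.99 and 7.38 in the DBA cross. Sncg, a synuclein found in fat and nerve, read 5.68, 6.53 and 5.58 against 6.75, 5.77 and 5.72. Car3, a carbonic anhydrase abundant in both fat and skeletal muscle, had the widest range of the set. It read 9.84, 9.30 and 11.09 in the AKR cross and 12.29, 5.52 and 8.42 in the DBA cross, a range of 6.77 log2 units. Unlike Adipoq, Car3 was also high on AKR replicate 3.

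The brown fat genes split. Ucp1 read 6.65, 7.76 and 6.58 in the AKR cross and 9.54, 6.56 and 6.41 in the DBA cross, and Cidea, a droplet protein of brown fat, read 6.72, 7.22 and 6.53 against 8.66, 6.52 and 6.55. Both stood highest on DBA replicate 1, 7.80-fold and 4.32-fold above the median of the others, and next highest on AKR replicate 2. Ppargc1a, a coactivator of mitochondrial biogenesis, instead separated the crosses, at 5.80, 5.76 and 5.93 in the AKR cross and 6.35, 6.61 and 6.25 in the DBA cross. Its highest array was DBA replicate 2, the array on which Adipoq was lowest.

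Skeletal muscle markers were highest on the same array as most of the fat genes. All 20 measured muscle markers stood at least 1 log2 unit above every other array on DBA replicate 1, against 0.573% of all genes. This list was chosen with earlier results of these data known, so the count is a description and not an independent result. Their mean deviation from each gene's median was 0.08, -0.04 and 1.12 in the AKR cross and 2.88, -1.73 and -1.77 in the DBA cross. The white fat genes had 0.12, 0.15 and 0.07 against 1.21, -0.54 and -0.28, and the brown fat genes -0.05, 0.47 and -0.10 against 1.74, 0.12 and -0.04. So the highest array was the same, but AKR replicate 3, the second in muscle, lay at 0.07 and -0.10 in the fat genes. The muscle creatine kinase gene Ckm read 9.25, 9.06 and 10.36 in the AKR cross and 11.68, 7.18 and 7.07 in the DBA cross, and Tnni2, a troponin, 9.16, 9.74 and 10.13 against 11.28, 8.25 and 8.16. Actin of skeletal muscle (Acta1) read 11.24, 10.17 and 12.24 against 13.29, 6.29 and 6.59. The part of muscle in the values of genes that both tissues express, such as Car3, Lpl, Cd36 and Slc2a4, was not tested.

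**Figure D3:**
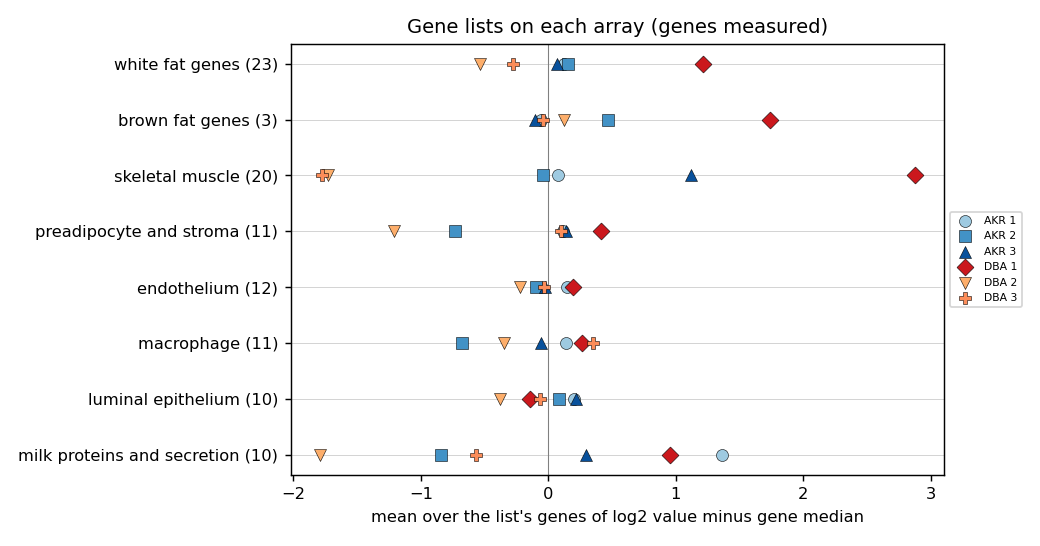
Each symbol is 1 array, placed at the mean over a list's measured genes (number in brackets) of the log2 value minus the gene's median over the 6 arrays. DBA replicate 1 stands at 1.21 for white fat, 1.74 for brown fat and 2.88 for skeletal muscle, while endothelial markers stay between -0.22 and 0.19.

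Other cell types gave different orders of the arrays. Preadipocyte and stroma markers lay at 0.12, -0.73 and 0.14 in the AKR cross and 0.41, -1.21 and 0.10 in the DBA cross. Among them Col1a1 read 12.38, 11.25 and 12.25 against 12.00, 9.26 and 11.35, Col3a1 12.84, 11.69 and 12.88 against 13.10, 10.59 and 12.41, and Dcn 10.17, 9.06 and 10.09 against 10.99, 7.50 and 11.10. Milk protein and secretory genes were highest on AKR replicate 1 (1.36) and next on DBA replicate 1 (0.95), and lowest on DBA replicate 2 (-1.79). DBA replicate 2 was thus the lowest array of the white fat, stroma and milk lists by this measure. It was also the lowest of the luminal epithelial list, at -0.38 against -0.14 to 0.22 elsewhere, and of the endothelial list. The part of these cell types in the fat values was not tested.

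Probe sets of 1 gene agreed for some genes and not for others. Of 45 member probe sets, 25 were highest on DBA replicate 1 and 13 by at least 1 log2 unit, against 0.442% of all probe sets. The other Lpl probe set read 6.72, 6.19 and 6.50 in the AKR cross and 8.87, 5.94 and 6.56 in the DBA cross. A further Cd36 probe set read 6.29, 5.77 and 6.11 against 9.25, 5.69 and 6.23, and the second of Fabp4 read 6.51, 5.99 and 6.80 against 9.04, 5.90 and 6.59. All of these repeat the high value of DBA replicate 1. The dimmest probe sets of Fabp4 (5.90 to 6.43) and Pck1 (4.17 to 4.41) varied by at most 0.53 and 0.24 log2 units. The second Dgat2 probe set, nearly as bright as the first, read 7.99, 8.36 and 7.78 against 8.39, 7.80 and 7.59 and did not set DBA replicate 1 apart. Of the 3 brighter Gpd1 probe sets, each was highest on another array. Both Car3 probe sets were highest on DBA replicate 1 and lowest on DBA replicate 2.

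**Figure D4:**
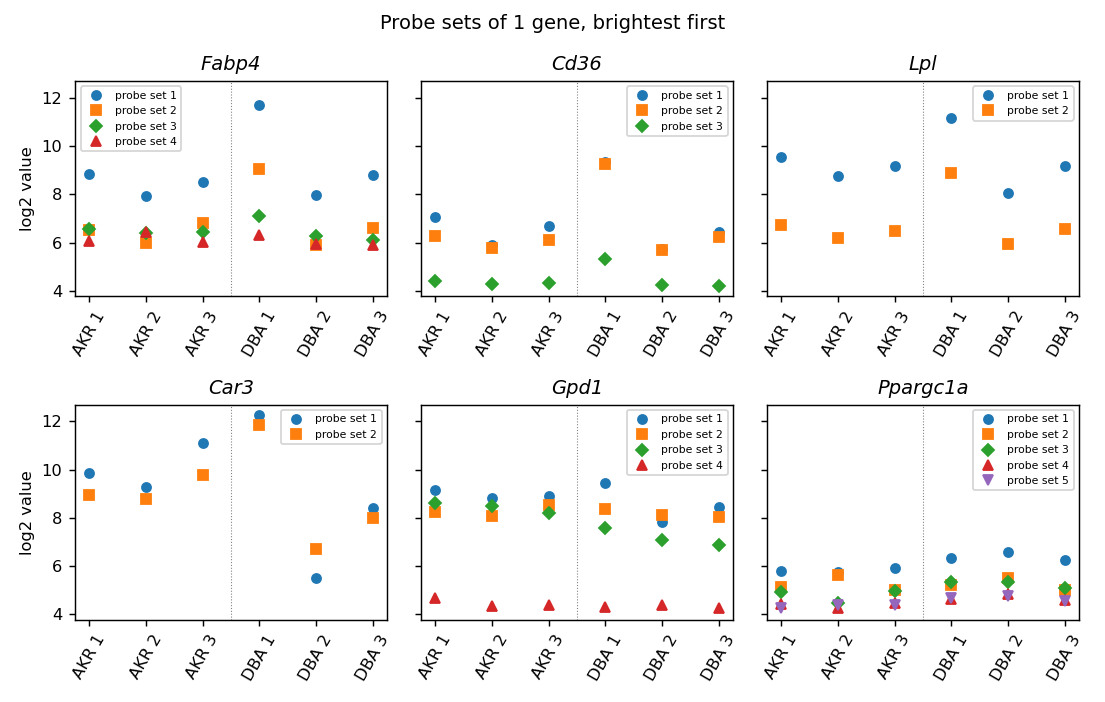
Each panel shows 1 gene, with log2 values on the 6 arrays and 1 symbol per probe set, the brightest first; the dotted line separates AKR from DBA F1 tumours. Fabp4, Cd36 and Lpl have at least 2 probe sets that peak on DBA replicate 1, the third Gpd1 probe set lies lower on all 3 DBA arrays, and Ppargc1a lies slightly higher there.

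Between the crosses, no member could be called. By limma, a linear model fitted over all probe sets with Benjamini-Hochberg adjustment, 0 of 45 member probe sets passed an adjusted p of 0.05, against 0.0972% of all probe sets (22 of 22626; 0.0354% with AKR F1 tumours higher, 0.0619% with DBA F1 tumours higher). Taken at the brightest probe set, 0 of 26 member genes passed, against 0.0565% of all genes. At an unadjusted p under 0.05 there were 3 of 26 member genes (Lipe, Acvr1c and Ppargc1a), against 25.2% of all genes, and the crosses did not overlap in 2 of 26 (Acvr1c and Ppargc1a), against 38.4% of all genes. Over probe sets the crosses did not overlap in 6 of 45, against 39.2% of all. With estimated array weights in the model, which called 3712 probe sets in all, 1 white fat gene (Cebpa, higher in AKR F1 tumours, limma adjusted p = 0.0381) and 1 brown fat gene (Ppargc1a, higher in DBA F1 tumours, limma adjusted p = 0.0304) passed, 2 of 26 against 15.3% of all genes. The median difference of AKR minus DBA F1 tumours was 0.04 log2 units over the 23 white fat genes, against 0.05 over all genes, and by their means 13 of the 23 lay above the DBA cross, against 54.8% of all genes. For the 3 brown fat genes it was -0.51, with all 3 means higher in DBA F1 tumours.

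Means and spreads show how far single DBA arrays set these values. Adipoq lay at 6.79 ± 0.40 in the AKR cross and 7.41 ± 2.85 in the DBA cross (SD, n = 3 each), a log2 difference of -0.62 with SE 1.28 (limma adjusted p = 0.747). Fabp4 had the largest difference toward DBA F1 tumours among the member genes (-1.06, SE 0.89, limma adjusted p = 0.426), and Car3 the largest toward AKR F1 tumours (1.34, SE 1.56, limma adjusted p = 0.562). In each of these the standard error was close to or above the difference itself. The Car3 difference rested on DBA replicate 2, without which it was -0.27. Lipe was the nearest to the threshold among white fat genes at their brightest probe sets, at 7.94 ± 0.38 against 7.14 ± 0.43 (SD, n = 3 each; log2 difference 0.80, SE 0.27, limma adjusted p = 0.149). For Acvr1c limma gave an adjusted p of 0.175.

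Without DBA replicate 1 the direction of 10 of 26 member genes changed. These were Adipoq, Rbp4, Lpl, Cd36, Fabp4, Pck1, Pparg and Sncg of the white and Ucp1 and Cidea of the brown fat genes, whose means then lay higher in AKR F1 tumours. The median difference of the white fat genes became 0.44 log2 units, against 0.08 over all genes, and 21 of 23 had the higher mean in AKR F1 tumours, against 56.7% of all genes. Dim probe sets as a whole lay toward AKR F1 tumours with or without that array. Without it the median was 0.20 over all probe sets below the median level and -0.12 over those above it. With all 6 arrays these medians were already 0.18 and -0.14, so they moved little. Of the 23 white fat genes, 14 lie below the median level. The brown fat median became 0.29. Still 0 of 26 genes passed limma's adjusted p at the brightest probe set, where 1.16% of all genes did (144 of 12393; 0.129% with AKR F1 tumours higher, 1.03% with DBA F1 tumours higher), and 6 had an unadjusted p under 0.05 (20.1% of all genes). The crosses then did not overlap in 13 of 26 genes with the AKR cross higher, against 31.3% of all genes, and in 1 with the DBA cross higher, against 20.4%. DBA replicate 1 was singled out because it stood apart, as the highest array of 17 of 26 member genes (17.1% of all genes). Leaving out the highest DBA value lowers the DBA mean, so shifts toward AKR F1 tumours follow in part from that choice. The shares of all genes do not allow for this. With AKR replicate 2 left out as well, a choice made after seeing the data, the white fat median was 0.29 against 0.085 over all genes and 19 of 23 means were higher in AKR F1 tumours (60.5% of all genes), with 0 calls by limma where 2.75% of all genes had one.

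The sizes without that array differed by gene. Lipe differed by 1.04 log2 units (limma adjusted p = 0.103), Gpd1 by 0.82 (0.14 by limma), Plin4 by 0.64 (0.162 by limma) and Cidec by 0.56 (0.155 by limma), all higher in AKR F1 tumours. Adipoq differed by 0.96 (0.288 by limma). Fabp4 differed by 0.04, so its difference of -1.06 rested on DBA replicate 1. The median difference of the muscle list was 0.50 with all arrays and 2.20 without that one, and Car3, which muscle also makes, went from 1.34 to 3.11.

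**Figure D5:**
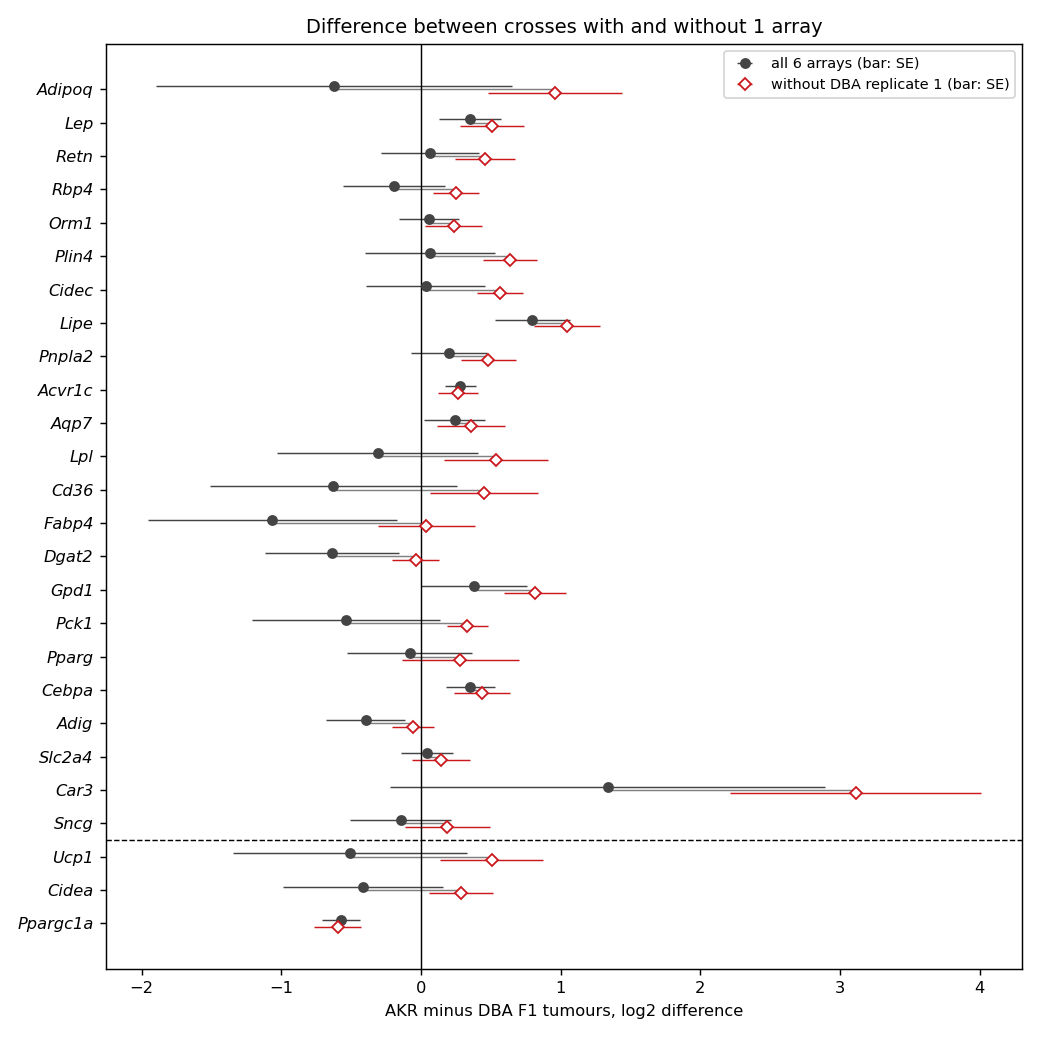
Symbols give the log2 difference of AKR minus DBA F1 tumours for each member gene with its standard error, over all 6 arrays (filled circles) and without DBA replicate 1 (open diamonds), joined by a thin line; brown fat genes lie below the dashed line. For 10 of 26 genes the symbols fall on opposite sides of 0, and Ppargc1a stays near -0.6 in both.

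One Gpd1 probe set differed from the other probe sets of the gene. The third in brightness read 8.60, 8.52 and 8.20 in the AKR cross and 7.58, 7.09 and 6.89 in the DBA cross, with no overlap and a 2.39-fold difference of the means. The log2 difference was 1.25 (SE 0.21, limma adjusted p = 0.0837), and without DBA replicate 1 it was 1.45 and passed (limma adjusted p = 0.0297), the 1 of 45 member probe sets that did, against 1.16% of all probe sets. Other Gpd1 probe sets differed by 0.38, 0.11 and 0.15. Strain variants under the probes were not tested.

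Ppargc1a was higher in DBA F1 tumours at 4 of its 5 probe sets, with log2 differences of -0.57, -0.47, -0.32 and -0.33. At these 4 the crosses did not overlap, as in 39.2% of all probe sets. By mean level they lie at the 23.2, 8.7, 4.0 and 3.8 percentile of all probe sets, and they read the same gene on the same arrays. The remaining probe set differed by 0.02. At the brightest, the crosses lay at 5.83 ± 0.09 and 6.40 ± 0.19 (SD, n = 3 each; limma adjusted p = 0.103), a 1.49-fold difference. Without DBA replicate 1 it differed by -0.60, so unlike Ucp1 and Cidea it kept its direction.

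Further genes of fat metabolism, from lists of other genes than the members, gave no call by limma over all arrays. Their counts at an unadjusted p under 0.05 stand beside 25.2% of all genes, and nothing particular to a list is read from them. Of 10 droplet and lipolysis genes 1 had an unadjusted p under 0.05, and the 3 with the smallest p were Plin3 (-0.55), the seipin gene Bscl2 (-0.44) and Plin2 (-0.34), the perilipin of most cells, which read 12.55, 11.64 and 12.15 in the AKR cross and 12.65, 12.41 and 12.29 in the DBA cross. Plin2, which mammary epithelium also makes, was highest on DBA replicate 1 by 0.10 log2 units, against 0.80 for Plin4. Of 11 uptake and esterification genes 3 had an unadjusted p under 0.05. Cav1, the caveolin of fat cell and endothelial caveolae, read 8.64, 7.94 and 8.53 against 9.69, 10.13 and 10.04 (log2 difference -1.58, SE 0.22, limma adjusted p = 0.0661) and passed without DBA replicate 1 (limma adjusted p = 0.0373). Cav2 differed by -0.99 and Dgat1 by 0.29.

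Of 17 adipogenic regulators none was called by limma, and 2 had an unadjusted p under 0.05, Gata2 (0.56) and Cebpd (-1.07), followed by Ppard (0.37). Among 5 genes of insulin response and glucose uptake, of which 0 had an unadjusted p under 0.05 by limma, Insr (0.20), Irs1 (-0.46) and Slc2a1 (-0.44) came first. Of 12 further secreted factors and receptors 1 had an unadjusted p under 0.05. Nampt differed by -1.11 (limma adjusted p = 0.0973), Adipor1, an adiponectin receptor, by -0.36, and Retnla by -1.24. Retnla read 8.53, 8.22 and 8.61 in the AKR cross and 10.88, 8.04 and 10.16 in the DBA cross, high on DBA replicates 1 and 3.

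Among 12 further brown fat and thermogenic genes, 4 stood at least 1 log2 unit above all other arrays on DBA replicate 1. These were the fatty acid binding protein Fabp3, the pyruvate dehydrogenase kinase Pdk4 and the cytochrome oxidase subunits Cox7a1 and Cox8b, all of which muscle also expresses. By the smallest limma p, the list was led instead by Esrra (0.59), Elovl3 (0.30) and Dio2 (0.25), none of which passed. Elovl3, a fatty acid elongase induced in brown fat by cold, read 6.12, 6.12 and 5.97 in the AKR cross and 5.86, 5.66 and 5.80 in the DBA cross, and Dio2, which activates thyroid hormone, read 6.99, 6.80 and 6.90 against 6.64, 6.66 and 6.65. On DBA replicate 1 both lay below all AKR values, whereas Ucp1 and Cidea were highest there.

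Outside all lists, 166 genes had an SD of at least 1 log2 unit over the 6 arrays. The 10 whose values were most like those of Adipoq, by Pearson's r over 6 arrays that share their processing, were Myot (0.94), Pygm (0.94), Ckmt2 (0.93), Pgam2 (0.92), Actn2 (0.91), Smpx (0.91), Myom2 (0.90), Ryr1 (0.89), Lao1 (0.89) and Ogn (0.88). Without DBA replicate 1, r over 5 arrays was between 0.34 for Ckmt2 and 0.63 for Myot in all of these but Lao1 (0.84). Of the 10 genes, 8 are known genes of striated muscle, all but Lao1 and Ogn. Members spread widely over the same 5 arrays, from 0.98 for Lpl through 0.59 for Pck1, 0.21 for Rbp4, 0.12 for Cidea and -0.01 for Ucp1 to -0.70 for Dgat2 and -0.93 for Adig.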

How the data were processed

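The labels' protocols give a Trizol extraction of total RNA from snap-frozen tumour tissue and Affymetrix labelling, and groups came from the source names. The authors deposited log2 values of 22690 probe sets on 6 arrays, a scale read from the values. The submitters' processing notes name MAS5 and RMA without saying which made these values, and the background correction was not found. Replicate numbers only name samples. The 64 control probe sets were left out. Annotation gave 1 symbol for 20380 of the remaining probe sets, several for 691 and none for 1555.

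The test was limma (version 3.58.1, R 4.3.3), two-sided, with lmFit, eBayes and an adjusted p of 0.05 by Benjamini-Hochberg across 22626 probe sets, tested on simulated data. Differences are AKR minus DBA. The 3 arrays per cross limit the precision. Named were all members, in each pathway list the 3 genes of smallest p, in each cell type list the 3 brightest genes, and the 10 genes most like Adipoq; any other gene was picked with its values in view. Members and lists were chosen with earlier results of these data known. Alternatives were quantile normalization, median centring, a filter on dim probe sets, a trended robust prior, array weights, gene means, an adjusted p of 0.10, and leaving out arrays. Figures were drawn with matplotlib 3.10.9.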

Additional observations from a re-analysis of the deposited data

How the results depend on the processing

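The count of called probe sets was 22 in the report, 36 after quantile normalization, 102 among probe sets brighter than the median, 3712 with array weights, 1 with 1 mean value per gene, 810 at an adjusted p of 0.10, 657 without both AKR replicate 2 and DBA replicate 1 (an alternative added after seeing the data), and 1 to 263 with each array left out in turn. No member was called at its brightest probe set under these settings except with array weights (1 white and 1 brown fat gene). The medians of the white and brown fat genes ran from -0.27 to 0.44 and from -0.78 to 0.29 with 1 array left out, so each changed sign in some of these. The shifts lay within the spread between replicates. That spread includes DBA replicate 1, which stood apart in these genes, so it cannot judge a shift made by leaving that array out. Of 26 member genes, 10 kept their direction under every setting run. After quantile normalization Orm1 (-0.11) and Cidec (-0.13) changed direction. With 1 array left out in turn, directions changed in 16 genes, with ranges of -1.81 to 0.96 for Adipoq, -0.15 to 0.46 for Retn, -0.44 to 0.25 for Rbp4, -0.10 to 0.23 for Orm1, -0.27 to 0.64 for Plin4, -0.25 to 0.56 for Cidec, -1.01 to 0.54 for Lpl, -1.34 to 0.45 for Cd36, -1.82 to 0.0388 for Fabp4, -0.98 to 0.33 for Pck1, -0.52 to 0.28 for Pparg, -0.16 to 0.15 for Slc2a4, -0.27 to 3.11 for Car3, -0.45 to 0.19 for Sncg, -1.06 to 0.51 for Ucp1 and -0.78 to 0.29 for Cidea. Without both arrays Adipoq (1.18), Rbp4 (0.16), Lpl (0.74), Cd36 (0.78), Fabp4 (0.29), Pck1 (0.29), Ucp1 (0.13) and Cidea (0.0908) lay higher in AKR F1 tumours. Of these 16, Pparg changed direction without AKR replicate 1, Retn, Orm1, Plin4 and Cidec without AKR replicate 2, Pparg and Sncg without AKR replicate 3, Retn, Plin4, Cidec and Car3 without DBA replicate 2, and Retn, Orm1, Plin4, Cidec and Slc2a4 without DBA replicate 3. The 10 genes of DBA replicate 1 are in the report. The causes were not tested. No brown fat gene was among the probe sets brighter than the median, so that setting gave no value for them. No paired analysis was possible because the labels give no replicate numbers shared by the crosses. The 9 member genes with a margin of at least 1 log2 unit on DBA replicate 1 were 8 with probe sets chosen over the other arrays, an alternative also added after seeing the data. No detection calls were used, so dim values can lie at background.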

Other observations

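Among the 71 genes that stood at least 1 log2 unit above all other arrays on DBA replicate 1, 20 were skeletal muscle markers, 9 were adipocyte members and 4 were from the brown fat and thermogenic list, which leaves 38. Of these 38, 19 are further genes of striated muscle, such as Ckmt2, Myot, Pygm, Ryr1 and Myom2, counted from a list made after the values were seen. The genes named here from the other 19 were also chosen after their values were seen. Aoc3, an amine oxidase of fat and smooth muscle, read 6.33, 6.11 and 6.08 in the AKR cross and 7.33, 6.30 and 6.10 in the DBA cross. Cyp2e1, a cytochrome P450 of liver and fat, read 7.09, 7.36 and 7.02 against 8.71, 6.87 and 6.76, and Acaa1b, a peroxisomal thiolase, read 6.72, 6.44 and 6.63 against 8.04, 5.50 and 6.22. Markers of resident macrophages and lymphatic vessels were among the 19 as well: Lyve1 read 7.57 on DBA replicate 1, with a margin of 1.58 over the next array, and the scavenger receptor Cd163 read 5.90, 4.86 and 5.59 against 7.27, 5.41 and 6.04. In the macrophage list, 0 of 11 measured genes had such a margin (0.573% of all genes) and 4 were highest on DBA replicate 1 (17.1% of all genes). A margin is so rare over all genes that a list of 11 genes cannot show whether it has fewer. The B cell gene Ms4a1 read 6.31, 5.81 and 6.64 against 7.67, 6.22 and 6.10, and Ighm, an immunoglobulin heavy chain, 9.47, 9.45 and 9.54 against 10.60, 9.29 and 9.31.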
